A study of Mus musculus with 2 samples.

Results

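Mesothelial cells of the mouse lung were described in 2 droplet single-cell RNA libraries of total lung cells, both from mice aged 5 weeks with cells of 3 mice pooled per library. The Cre library came from Nkx2.1 Cre;Lkb1f/f mice, which carry a floxed Lkb1 gene together with a Cre driver of Nkx2-1, a transcription factor of the lung epithelial lineage. The control library came from Lkb1f/f mice, which carry the same floxed gene without Cre. Lkb1, whose symbol is Stk11, encodes a kinase that activates AMPK and its relatives. A cell was counted as mesothelial with at least 4 UMIs (unique molecular identifiers, the tags that count captured transcripts) in sum for Msln, Upk3b, Lrrn4, Wt1 and Upk1b, at least 1 of them from Upk3b, Lrrn4 or Wt1, and none for the leukocyte gene Ptprc or the endothelial gene Pecam1. This held for 160 of 15111 kept cells in the Cre library and 155 of 12863 in the control library, or 315 of 27974 in all. Because UMI counts chose these cells, the levels of the 5 marker genes are descriptions.

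Mesothelium is a single sheet of flat cells of mesodermal origin that covers the lung and lines the chest cavity. It has junctions and keratins like an epithelium, yet also makes vimentin and collagens like a fibroblast, and it secretes lubricating glycoproteins and hyaluronan into the pleural space. Wt1 is a zinc finger transcription factor of embryonic mesothelium, Msln (mesothelin) is a surface glycoprotein that binds the mucin Muc16, Upk3b and Upk1b are uroplakin membrane proteins, and Lrrn4 is a membrane protein with leucine-rich repeats. Mesothelial cells were set against adventitial-type fibroblasts, the fibroblasts around airways and vessels, chosen by at least 3 UMIs in sum of Pi16, Col14a1 and Dpt with at most 1 of Msln and Upk3b. There were 1388 of them in the Cre library and 660 in the control library.

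With 1 library per genotype there is no replicate check, and no test between genotypes was possible. Intervals are exact, at 95%, and reflect counting error alone. Differences between mice, dissociations and library preparations cannot be told apart from the genotype. The Cre library held 16821 barcodes with 81598779 UMIs and the control library 13587 barcodes with 74219499 UMIs. They shared 68 barcode sequences, and no such sequence was mesothelial in both. The mesothelial cells were deep, at a median of 10386 UMIs and 3244.5 genes in Cre cells and 11777 UMIs and 3472 genes in control cells, with 5.35% and 5.11% mitochondrial UMIs at the median. Their UMIs summed to 1823930 and 1839526, and gene levels are given below as CPM, counts scaled to a common total of these sums. A 3' tag library is not scaled by gene length, so levels are compared between cells and not between genes.

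Of the 5 marker genes, Upk3b and Lrrn4 have a promoter in the RefSeq table (GRCm38.p6, 250 bases before to 50 after the start). Both are printed because their UMIs entered the choice of cells. Capitals mark the only match to GGAATG or its reverse complement CATTCC, the core of the motif bound by TEAD factors, the DNA-binding partners of Yap1. Upk3b lies on the plus strand at chr5:136038246-136038545 and Lrrn4 on the minus strand at chr2:132880813-132881112.
Upk3b: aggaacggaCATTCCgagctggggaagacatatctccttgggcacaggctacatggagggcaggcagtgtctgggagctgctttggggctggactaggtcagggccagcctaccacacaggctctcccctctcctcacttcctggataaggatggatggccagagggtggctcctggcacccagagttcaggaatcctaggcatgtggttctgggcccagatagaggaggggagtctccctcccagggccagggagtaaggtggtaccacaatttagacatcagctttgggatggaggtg
Lrrn4: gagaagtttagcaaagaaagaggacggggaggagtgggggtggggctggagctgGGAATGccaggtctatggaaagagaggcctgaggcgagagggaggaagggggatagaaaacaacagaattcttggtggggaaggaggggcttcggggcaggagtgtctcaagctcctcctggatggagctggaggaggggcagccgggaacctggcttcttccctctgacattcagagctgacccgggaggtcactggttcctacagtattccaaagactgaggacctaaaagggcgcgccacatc
The match lies 241 bases before the start in Upk3b and 196 bases before it in Lrrn4. These letters, on either strand, occur in 14.7% of 32851 promoters of the table, and in 3 of the 11 promoters found for 10 of the 15 genes named below as highest in mesothelial cells. A match is a description of the sequence and not a measured site. Of the factors themselves, Tead1 stood at 235 CPM in Cre and 172 CPM in control mesothelial cells, and Yap1 at 60.9 and 73.9 CPM.

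Nearly every member carried most of the marker genes. All 5 were detected in 132 of 160 Cre cells (82.5%) and 123 of 155 control cells (79.4%), and another 18 and 26 cells had 4. Their sum per cell had a median of 67.5 UMIs in Cre cells (lowest 4, highest 258) and 80 in control cells (lowest 4, highest 264), so few cells lay near the limit. At the limit of 4 UMIs stood 1 cell in each library, and 2 in each stood at 3 UMIs, just outside. Cells with 4 or more marker UMIs but none from Upk3b, Lrrn4 or Wt1 were of another kind. These 38 Cre and 31 control cells had 62530 and 165602 CPM of Scgb1a1, the secretoglobin of club cells, no UMI of Rspo1, and Upk1b at 689 and 555 CPM. A further 63 Cre and 64 control cells met the marker limits and were left out for Ptprc or Pecam1, 32 and 30 of them for a single UMI.

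Msln stood at 3020 CPM in Cre and 2997 CPM in control mesothelial cells. Per 10000 UMIs of a cell it had a median of 32.0 in Cre cells (highest 77.6) and 31.5 in control cells (highest 86.6), and the cells of both libraries covered the same span down to 0. Upk3b stood at 1580 and 1821 CPM in Cre and control cells, Lrrn4 at 662 and 793 CPM, Upk1b at 673 and 744 CPM, and Wt1 at 328 and 304 CPM. In adventitial-type fibroblasts 4 of these genes were at or below 2 CPM in either library, and Upk1b was at 41.9 CPM in Cre and 28.1 CPM in control cells. Msln and Upk3b were low there by choice of cells, since the fibroblast rule allowed at most 1 UMI of them per cell.

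Mesothelial markers that the rule did not use gave the same identity. Of 14 such markers with enough UMIs, 13 were at least 4-fold above adventitial-type fibroblasts in both libraries, against 3.91% of all 10564 genes compared. The insulin-like growth factor binding protein gene Igfbp5 reached 9985 CPM in Cre and 10142 CPM in control cells. Nkain4, a partner of the sodium pump, stood at 857 and 1038 CPM, and Aldh1a2, which makes retinoic acid, at 485 and 551 CPM. The keratins Krt7, Krt8 and Krt18 stood at 468, 415 and 371 CPM in Cre cells and at 422, 336 and 326 CPM in control cells. Calretinin (Calb2), used as a mesothelial marker in human tissue, was detected in 0 of 160 Cre and 0 of 155 control cells. At this number of cells, a share carrying a UMI could still be as high as 1.88% and 1.94%. The E-cadherin gene Cdh1 was detected in 9 Cre and 2 control cells, while the P-cadherin gene Cdh3 was detected in 35 and 47 cells.

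**Figure D1:**
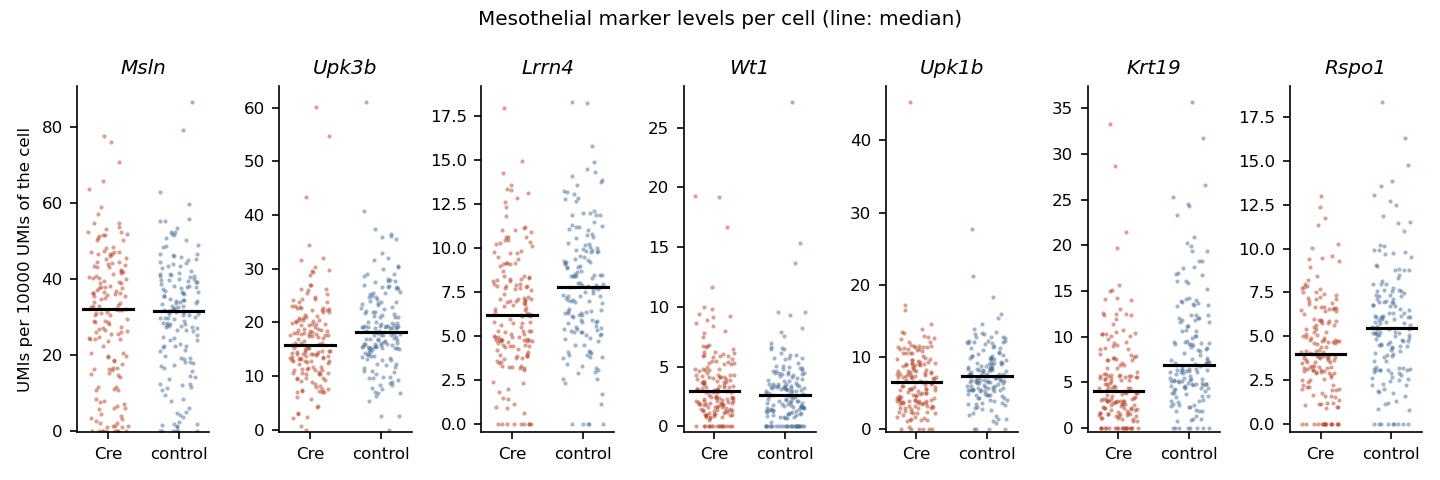
Level of each gene in each mesothelial cell (points, UMIs per 10000 UMIs of the cell), in 160 Cre cells (left) and 155 control cells (right) of each panel, with the median as a line and an axis of its own per gene. The medians of Msln lie close together, at 32.0 and 31.5, while that of Krt19 is lower in Cre cells, at 4.09 against 6.89.

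Mesothelial cells made up 1.06% of kept cells in the Cre library (95% Clopper-Pearson interval 0.902% to 1.24%) and 1.21% in the control library (1.02% to 1.41%). The log2 ratio of the shares was -0.19 (-0.51 to 0.14), an interval that spans 0. Adventitial-type fibroblasts made up 9.19% of Cre and 5.13% of control cells, a log2 ratio of 0.84 (0.71 to 0.98). Counted per adventitial-type fibroblast, the log2 ratio of mesothelial cells was -1.03, so its size depended on the cells it was set against. The pooling of 3 mice into a library leaves the spread of these shares between mice unknown.

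Set against adventitial-type fibroblasts, 413 genes were at least 4-fold higher in mesothelial cells in both libraries (3.91% of 10564) and 879 at least 4-fold lower (8.32%), with the marker genes of both rules left out. The genes furthest above the fibroblasts were Slurp1, a secreted protein of the Ly6 family, and Gpm6a, a membrane glycoprotein first known from neurons. Slurp1 had 1823 CPM in mesothelial and 1.09 CPM in adventitial-type cells of the Cre library, a ratio of 1676 (935 to 3360), and 1812 and 1.04 CPM in the control library. Gpm6a had 1890 and 1.68 CPM in the Cre library and 1910 and 0.417 CPM in the control library. The others with the widest gaps were Muc16, Lgals2, Pkhd1l1, Lgals7, Cldn15, Fxyd3, Rspo1, Sbsn, Sfrp2, Fras1, Tmem151a, Myrf and Lypd2.

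Several of these encode surface and barrier proteins. Muc16, the large mucin that mesothelin binds, stood at 302 CPM in Cre and 397 CPM in control mesothelial cells, and at 0 and 0.208 CPM in the fibroblasts. Cldn15, a claudin that forms cation-selective pores, had 388 and 438 CPM in Cre and control mesothelial cells, and Fxyd3, a regulator of the sodium pump, had 1100 and 1416 CPM. The water channel Aqp1 had 1811 and 2285 CPM in Cre and control mesothelial cells, against 96.1 and 148 CPM in the fibroblasts. The actin-membrane linker ezrin (Ezr) had 1252 and 1173 CPM, against 104 and 81.7 CPM. Of 20 keratin and junction genes compared, 10 were at least 4-fold higher in mesothelial cells and 0 lower, against 3.91% and 8.32% of all genes.

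Lists of secreted signals went both ways against the fibroblasts. At least 4-fold higher and lower were 6 and 7 of 25 growth factors, 2 and 2 of 13 Wnt ligands, R-spondins and antagonists, and 2 and 8 of 18 chemokines and cytokines, against 3.91% and 8.32% of all genes. Among those higher in mesothelial cells, Rspo1, which strengthens Wnt signals, had 435 CPM in Cre and 578 CPM in control mesothelial cells against 2.57 and 1.87 CPM in the fibroblasts, ratios of 169 (115 to 261) and 308 (162 to 676). Sfrp2, a secreted frizzled-related protein, had 804 and 597 CPM in mesothelial cells and 0.890 and 5.42 CPM in the fibroblasts. Fgf9 and Fgf18, growth factors of the developing lung, were low, with Fgf9 at 38.9 and 28.8 CPM in Cre and control mesothelial cells against 0.297 and 0.833 CPM in the fibroblasts, and Fgf18 at 82.2 and 63.1 CPM against 3.36 and 7.50 CPM. Tgfb2 had 484 and 444 CPM, against 58.2 and 43.3 CPM. Complement was abundant, with C3 at 7068 CPM in Cre and 5902 CPM in control mesothelial cells and at 945 and 585 CPM in the fibroblasts. Among transcription factors, Bnc1 (basonuclin) had 93.2 and 119 CPM in mesothelial cells and no UMI in the fibroblasts, and Gata6 had 254 and 246 CPM against 48.4 and 49.4 CPM.

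The 10 genes named as furthest below the fibroblasts were Mamdc2, Mfap4, Lum, Inmt, Dpep1, Cxcl14, Pcolce2, Pi15, Adamtsl2 and Itga8. Mfap4, a microfibril protein, had 34.0 CPM in mesothelial and 2409 CPM in adventitial-type cells of the Cre library, and 5.44 and 1720 CPM in the control library. The proteoglycan lumican (Lum) had 0 and 0.544 CPM in Cre and control mesothelial cells against 111 and 183 CPM in the fibroblasts. Of 41 extracellular matrix genes compared, 5 were at least 4-fold higher in mesothelial cells and 9 lower, against 3.91% and 8.32% of all genes. Col3a1 stood at 2820 and 3216 CPM in Cre and control mesothelial cells against 5336 and 4395 CPM. Col14a1, which helps define adventitial-type fibroblasts, was itself mesothelial: it was detected in 120 of 160 Cre and 104 of 155 control mesothelial cells, whereas Pi16 was detected in 7 and 5 and Dpt in 10 and 3. Through Col14a1, 87 Cre and 52 control members also met the fibroblast limit of 3 UMIs, and its level was 324 CPM in Cre and 180 CPM in control mesothelial cells, a ratio of 1.80 (1.57 to 2.07).

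**Figure D2:**
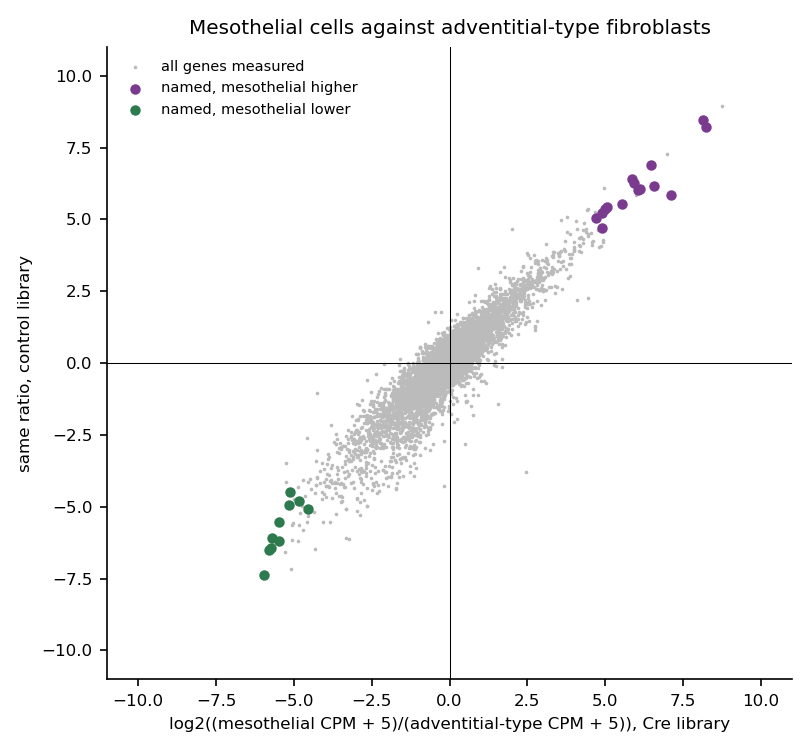
Each point is a gene, placed by the log2 ratio of its level plus 5 CPM in mesothelial cells over that in adventitial-type fibroblasts, in the Cre library (horizontal) and the control library (vertical). The 15 named higher genes (purple) and 10 named lower genes (green) sit at the ends of a diagonal that both libraries share.

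Within the mesothelium the cells fell along a first principal component, computed on both libraries together, that parted a smaller from a larger group. The smaller group held 29 of 160 Cre cells (18.1%, 12.5% to 25%) and 31 of 155 control cells (20%, 14.0% to 27.2%), so the shares lay within each other's intervals. The component carried 3.44% of the variance, and 12 Cre and 10 control cells lay within 10% of the range from the split. None of the smaller group's cells was called a doublet, and their median depth was 8477 UMIs in Cre and 10245 in control cells, against 10682 and 11984.5 in the larger group. The split was made from the same genes, so what follows describes it and tests nothing. No cell type is given to either group.

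Cells of the smaller group had less Msln and more Wt1. Msln stood at 513 CPM in the smaller and 3432 CPM in the larger group of the Cre library, and at 978 and 3424 CPM in the control library. Wt1 stood at 548 and 292 CPM in the smaller and larger group of the Cre library. In the control library Wt1 stood at 451 and 273 CPM. Within the smaller group Msln was detected in 20 of 29 Cre and 26 of 31 control cells, and Wt1 in 28 and 28. Slurp1 was detected in 2 of 29 cells of the smaller and 111 of 131 cells of the larger group in the Cre library, and in 0 of 31 and 110 of 124 in the control library. Lypd2, of the same Ly6 family, was detected in 0 cells of the smaller group in either library and in 76 and 72 cells of the larger group in the Cre and control libraries. Lbp, the lipopolysaccharide binding protein, was detected in 6 of 29 and 117 of 131 cells in the Cre library, and in 4 of 31 and 108 of 124 in the control library. Fmo2, a flavin monooxygenase abundant in lung, had 423 and 3015 CPM in the smaller and larger group of the Cre library and 645 and 3857 CPM in the control library.

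The smaller group had its own genes. Osr1, a zinc finger transcription factor of early mesoderm, was detected in 23 of 29 cells of the smaller and 3 of 131 cells of the larger group in the Cre library, and in 25 of 31 and 9 of 124 in the control library. Fgf1, a fibroblast growth factor, was detected in 17 of 29 and 4 of 131 Cre cells, and in 20 of 31 and 1 of 124 control cells. Enpp2, which makes lysophosphatidic acid, had 870 and 8.30 CPM in the smaller and larger group of the Cre library and 701 and 6.59 CPM in the control library. Csrp2, Igfbp4, Igf1, Col18a1, Fndc1, Spon2, Slc38a1 and Flnc lay the same way in both libraries. Lgals1 (galectin-1) was detected in every cell of the smaller group, at 3178 CPM in Cre and 5085 CPM in control cells, against 114 and 118 CPM in the larger group. Cxcl13 and Fabp4 also met the rule for naming, but single cells held 236 of the 246 Cre and 203 of the 205 control Cxcl13 UMIs of the smaller group. Of the fibronectin (Fn1) UMIs there, 220 of 410 in Cre and 126 of 238 in control cells came from 1 cell each.

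**Figure D3:**
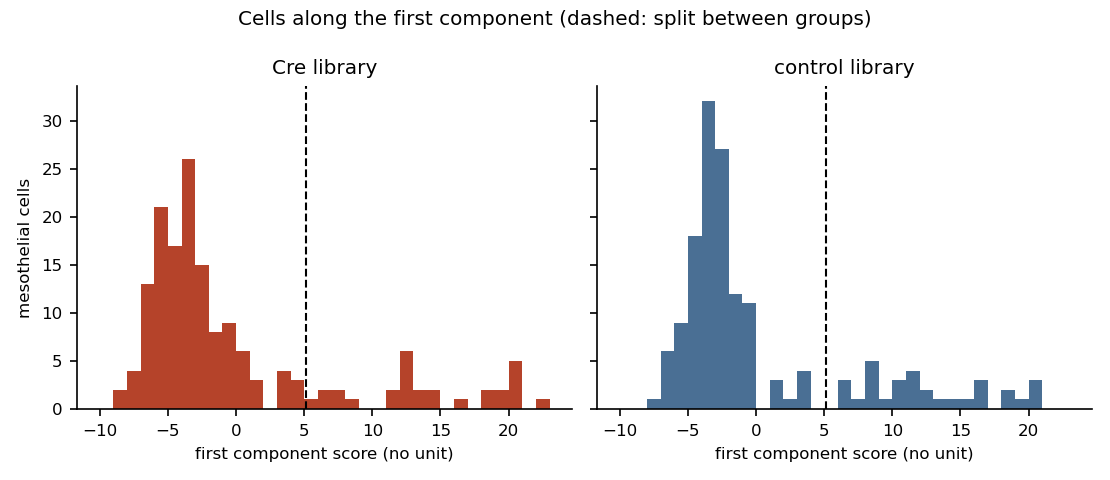
Number of mesothelial cells by their score on the first principal component in the Cre library (left) and the control library (right), with the split between the larger group (left of the dashed line) and the smaller group (right of it). The smaller group holds 29 Cre and 31 control cells and is spread over a wide range of scores.

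Between the libraries, 200 of 8646 genes with at least 30 UMIs were at least 2-fold higher in Cre than in control mesothelial cells (2.31%) and 123 were at least 2-fold lower (1.42%), together 323 genes (3.74%), with a median log2 ratio of 0.01 over all genes. In adventitial-type fibroblasts 5.06% of 12136 genes were at least 2-fold higher and 4.28% lower. Of the mesothelial genes also measured in the fibroblasts, 31 of 194 higher and 11 of 105 lower ones were past 2-fold the same way there, and 9 were past it the other way. For 106 of the 200 higher and 108 of the 123 lower genes, mesothelial cells matched or exceeded the other kept cells. This compared levels in the library where the gene was higher. Genes were named only where that held, with at least 50 CPM there but no 2-fold limit. This left 1269 candidates above and 1190 below a ratio of 1. Of the 24 genes named, 21 were at least 2-fold apart. Without the cell with most UMIs of each gene, 185 of the 200 and 119 of the 123 stayed past 2-fold. Other genes crossed the limit then, and 381 genes in all were past 2-fold, against 323 with every cell.

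Stk11, the floxed gene, was not lower in Cre mesothelial cells. It had 66.9 CPM in Cre and 48.9 CPM in control cells, a ratio of 1.37 (1.03 to 1.82), and was detected in 87 of 160 and 62 of 155 cells. A 3' tag does not report on a floxed exon that may lie elsewhere in the gene, so this level checks neither the deletion nor the label. Nkx2-1 itself had 10 UMIs in Cre and 7 in control mesothelial cells. Of 19 LKB1, AMPK and SIK kinase genes measured, 0 were past 2-fold in either direction, near the 3.74% of all genes, and 13 had ratios above 1, with a list median of 0.20 on the log2 scale.

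By the rule on interval bounds, the 12 genes named as higher in Cre mesothelial cells were Cxcl1, Rnd1, Sbno2, Ccl2, Vcam1, Gbp5, Manf, Timp3, Creld2, Igfbp3, Rhbdd2 and Osmr. Cxcl1, which draws neutrophils, had 601 CPM in Cre and 153 CPM in control mesothelial cells, a ratio of 3.92 (3.44 to 4.49). Ccl2, which draws monocytes, had 532 and 171 CPM, a ratio of 3.12 (2.74 to 3.55). In adventitial-type fibroblasts the ratios of Cxcl1 and Ccl2 were 1.25 and 1.71. In all other kept cells Cxcl1 had 143 CPM in the Cre and 72.2 CPM in the control library, and Ccl2 119 and 69.8 CPM. The higher mesothelial sums came with more cells that had a UMI at all. Cxcl1 was detected in 80 of 160 Cre and 40 of 155 control mesothelial cells, and Ccl2 in 75 and 39. Both were detected together in 47 Cre and 13 control cells, Cxcl1 alone in 33 and 27, Ccl2 alone in 28 and 26, and neither in 52 and 89.

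After each cell was thinned to 1000 UMIs, which left out 2 Cre and 4 control members, Cxcl1 was detected in 21.5% of Cre (15.4% to 28.8%) and 7.95% of control cells (4.17% to 13.5%). Ccl2 gave 20.9% of Cre and 7.95% of control cells. In B cells, which should lack both, thinned shares were 1.08% and 0.543% for Cxcl1 and 1.25% and 0.543% for Ccl2 in the Cre and control libraries, at median depths of 2186.5 and 3265 UMIs. The mesothelial shares of these genes were therefore above the level that free RNA gave in B cells.

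Rnd1, whose product loosens cell adhesion, had 194 CPM in Cre and 45.1 CPM in control mesothelial cells, a ratio of 4.29 (3.37 to 5.52), against 4.06 and 5.42 CPM in the fibroblasts. Sbno2, a transcriptional regulator induced by STAT3-activating cytokines, had 103 and 25.6 CPM, a ratio of 4.01 (2.90 to 5.65), while its fibroblast ratio was 0.765. Osmr, the oncostatin M receptor, had 89.9 and 37.5 CPM, a ratio of 2.40 (1.80 to 3.22). The interferon-induced GTPase Gbp5 had 53.7 and 14.7 CPM, a ratio of 3.66 (2.37 to 5.83). Vcam1, the ligand of leukocyte integrins, had 140 and 42.4 CPM, a ratio of 3.30 (2.55 to 4.31), and was detected in 56 Cre and 20 control cells. Icam1, an adhesion molecule of the same kind, stayed under 2-fold at 867 and 477 CPM. The fibroblast ratios of Osmr, Gbp5 and Vcam1 were 1.65, 0.974 and 1.72.

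The larger group carried part of this. Within it Vcam1 had a ratio of 5.93 of Cre over control. In the smaller group Vcam1 had only 4 UMIs in Cre and 37 in control cells, 22 of the 37 in 1 cell. Ccl2 had ratios of 3.25 and 1.02 in the larger and smaller group. Cxcl1 was higher in Cre cells of both groups, at 3.99-fold and 3.42-fold. Whether these ratios differ between the groups was not tested. Of the 13 chemokine and cytokine genes measured, 4 were at least 2-fold higher (Cxcl1, Ccl2, Cxcl2 and Il6) and 0 lower, set against 2.31% and 1.42% of all genes, and the list median was 0.44 against 0.01 for all genes. Il6 rested on 1 Cre cell with 38 of its 53 UMIs. Cxcl10 stood at 748 CPM in Cre and 606 CPM in control cells, and the alarmin Il33 was lower at 98.1 and 147 CPM. Of 22 list genes in adventitial-type fibroblasts, 7 were at least 2-fold higher and 2 lower, against 5.06% and 4.28% of all genes there. The list median in the fibroblasts was 0.39, against 0.11 for all genes. Il33 was higher in Cre fibroblasts, at 137 CPM against 39.2 CPM.

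Genes of the unfolded protein response, which refit the endoplasmic reticulum when unfolded proteins build up, lay on the high side in Cre cells of both kinds. Of 18 measured in mesothelial cells, 16 had ratios above 1, 3 were at least 2-fold higher (Manf, Creld2 and Herpud1) and 0 lower, against 2.31% and 1.42% of all genes, and the list median was 0.40. In adventitial-type fibroblasts the median was 0.61, with 5 of 18 at least 2-fold higher against 5.06% of all genes, and a median of 0.11 for all genes. The higher level was not limited to these kinds of cell. The list summed to 8813 CPM in Cre and 5979 CPM in control mesothelial cells. It summed to 4806.5 and 2764 CPM in all other kept cells, and to 3623 and 2520 CPM in B cells. Manf, a secreted protein of the endoplasmic reticulum, had 864 CPM in Cre and 394 CPM in control mesothelial cells, a ratio of 2.19 (2.01 to 2.40), and 867 and 364 CPM in the fibroblasts. Creld2 had 122 and 48.4 CPM, a ratio of 2.52 (1.96 to 3.25). Its chaperone partners were below 2-fold: Hspa5 (BiP) had 1987 and 1144 CPM, a ratio of 1.74 (1.65 to 1.83), and Hsp90b1 had 1571 and 1047 CPM. Atf4 had a ratio of 0.851, so the list did not move as a whole.

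Timp3, an inhibitor of metalloproteases, had 756 CPM in Cre and 349 CPM in control mesothelial cells, a ratio of 2.17 (1.97 to 2.38), with a fibroblast ratio of 0.968. Of 10 matrix metalloprotease and crosslinking genes all had ratios above 1, with a median of 0.27 that turned to -0.51 after thinning to 1000 UMIs. Mmp2 alone was at least 2-fold higher and 0 were lower, against 2.31% and 1.42% of all genes. Mmp2 had 41 UMIs in Cre and 6 in control cells. The extracellular matrix list had 0 of 36 genes past 2-fold in either direction, near the 3.74% of all genes. Rhbdd2 had a ratio of 2.63 (1.82 to 3.87) and Igfbp3 of 2.90 (1.92 to 4.48), the second from 13 Cre and 7 control cells only. The smaller group held 84 of the 92 Cre and 31 of the 32 control Igfbp3 UMIs. Fibroblast ratios were 1.71 for Rhbdd2 and 0.400 for Igfbp3, the second in the other direction.

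**Figure D4:**
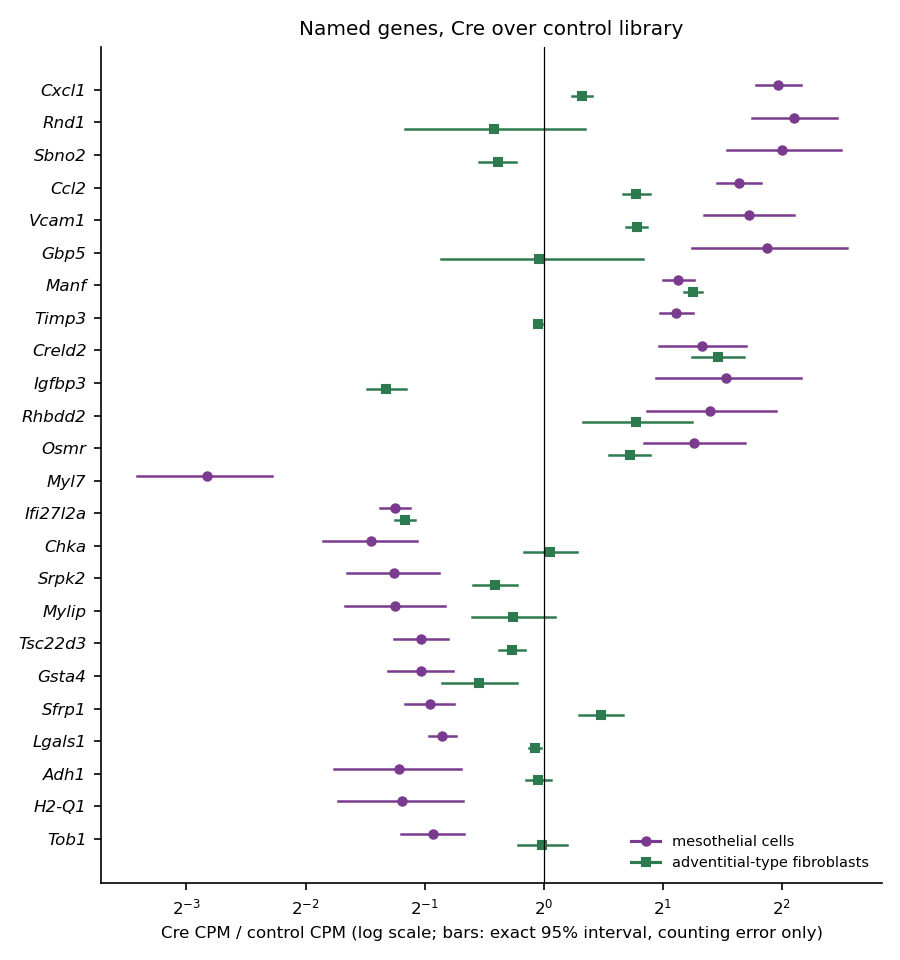
Ratio of Cre over control CPM of the 24 named genes on a log axis, in mesothelial cells (purple circles) and adventitial-type fibroblasts (green squares), with exact 95% intervals for counting error. Cxcl1, Rnd1 and Sbno2 lie near 4 in mesothelial cells and near or below 1.25 in the fibroblasts, Manf and Creld2 lie above 2 in both, and the fibroblast points of Myl7 and H2-Q1 are missing because a library had no UMI there.

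The genes furthest below the control library were led by Myl7, the atrial myosin light chain. It had 17.0 CPM in Cre and 121 CPM in control mesothelial cells, a ratio of 0.141 (0.0934 to 0.206), and was detected in 20 of 160 and 50 of 155 cells, while adventitial-type fibroblasts had 0.494 and 0 CPM. The heart muscle genes Myh6, Tnnt2, Nppa and Sln, looked up after this value was seen, had no UMI in mesothelial cells of either library, while Myl4 had 3 and 6, Actc1 0 and 2, and Tnni3 6 and 18 UMIs in Cre and control cells. Their part in the Myl7 ratio was not tested. The ratio came from the larger group, where it had 19.2 CPM in Cre and 146 CPM in control cells.

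Ifi27l2a, an interferon-induced gene, had 410 CPM in Cre and 973 CPM in control mesothelial cells, a ratio of 0.421 (0.386 to 0.459). The fibroblast ratio was 0.447. In all other kept cells Ifi27l2a had 217 CPM in the Cre and 514 CPM in the control library, and in B cells 384 and 708 CPM. The lower level was thus not limited to mesothelial cells and fibroblasts. Neither Ifi27l2a nor Gbp5 was a member of the interferon list. That list had 3 of 21 genes at least 2-fold higher (Ifit1, Isg15 and Oasl2), 0 lower and a median of -0.04, against 2.31% and 1.42% of all genes. Of the 50 Ifit1 UMIs in Cre cells, 35 came from 1 cell. H2-Q1, a class Ib histocompatibility gene, had 25.2 and 57.6 CPM, and H2-T23 had 70.2 and 141 CPM. Genes of this family resemble each other, so reads may be split between them. The class I genes H2-K1, H2-D1 and B2m had ratios of 0.771, 0.744 and 0.715, and the median of 14 class I and II genes was -0.28, against -0.41 in the fibroblasts.

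Tsc22d3 (GILZ), induced by glucocorticoids, had 134 CPM in Cre and 274 CPM in control mesothelial cells, a ratio of 0.490 (0.419 to 0.572). Fkbp5, induced by the same hormones, had 20.8 and 47.3 CPM. The list of glucocorticoid and metal responsive genes had a median of -0.01, with Cebpd higher at 135 and 47.3 CPM. Chka (choline kinase), Srpk2 (a kinase of splicing factors), Mylip (a ubiquitin ligase of the LDL receptor) and Adh1 (a retinol and alcohol dehydrogenase) had ratios between 0.365 and 0.431. Gsta4, a glutathione transferase, had 92.7 and 189 CPM, a ratio of 0.490 (0.405 to 0.590). Of 30 immediate early genes, which dissociation of tissue can induce, 13 had ratios above 1 and 17 below, with a median of -0.11. Cebpd was past 2-fold higher and Klf2 past 2-fold lower, at 410 CPM in Cre and 1061 CPM in control cells, near the 2.31% and 1.42% of all genes. Fos stood at 2582 and 4606 CPM and Jun at 1708 and 2709 CPM, and their part in the other ratios was not tested.

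Sfrp1, a secreted Wnt antagonist, had 162 CPM in Cre and 314 CPM in control mesothelial cells, a ratio of 0.516 (0.447 to 0.594), whereas its relative Sfrp2 had a ratio of 1.35 (1.25 to 1.46) and Rspo1 of 0.753 (0.686 to 0.827). Lgals1 had 547 and 985 CPM, a ratio of 0.555 (0.513 to 0.600), but the ratio was 0.969 within the larger group and 0.625 in the smaller group, which held most of its UMIs. Tob1, an inhibitor of proliferation, had 100.3 and 191 CPM. Of the identity genes, Krt19 had the lowest ratio among markers outside the rule, 0.626 (0.577 to 0.679). That ratio came from the smaller group, with 505 CPM in Cre and 1345 CPM in control cells, as well as from the larger one, with 530 and 734 CPM. The mesothelial markers outside the rule had 0 of 14 past 2-fold, near the 3.74% of all genes, with 11 of 14 below 1 and a median of -0.18.

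Across the lists other than markers of other cell types, medians ranged from 0.61 for type 2 response genes to -0.28 for histocompatibility genes. Oxidative phosphorylation had 21 of 27 genes below 1 and a median of -0.21, with 0 past 2-fold against 3.74% of all genes. The type 2 median rested in part on Retnla and Chil3, genes of alveolar macrophages and epithelium. Retnla had 662 CPM in Cre and 3.81 CPM in control mesothelial cells, yet 1 cell held 754 of its 1207 UMIs, and after thinning it was detected in 11.4% of Cre mesothelial cells against 15.3% of Cre B cells, so it did not stand above the share in cells that should lack it. Chil3 had 130 and 10.9 CPM, against 631 and 104 CPM in the fibroblasts.

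**Figure D5:**
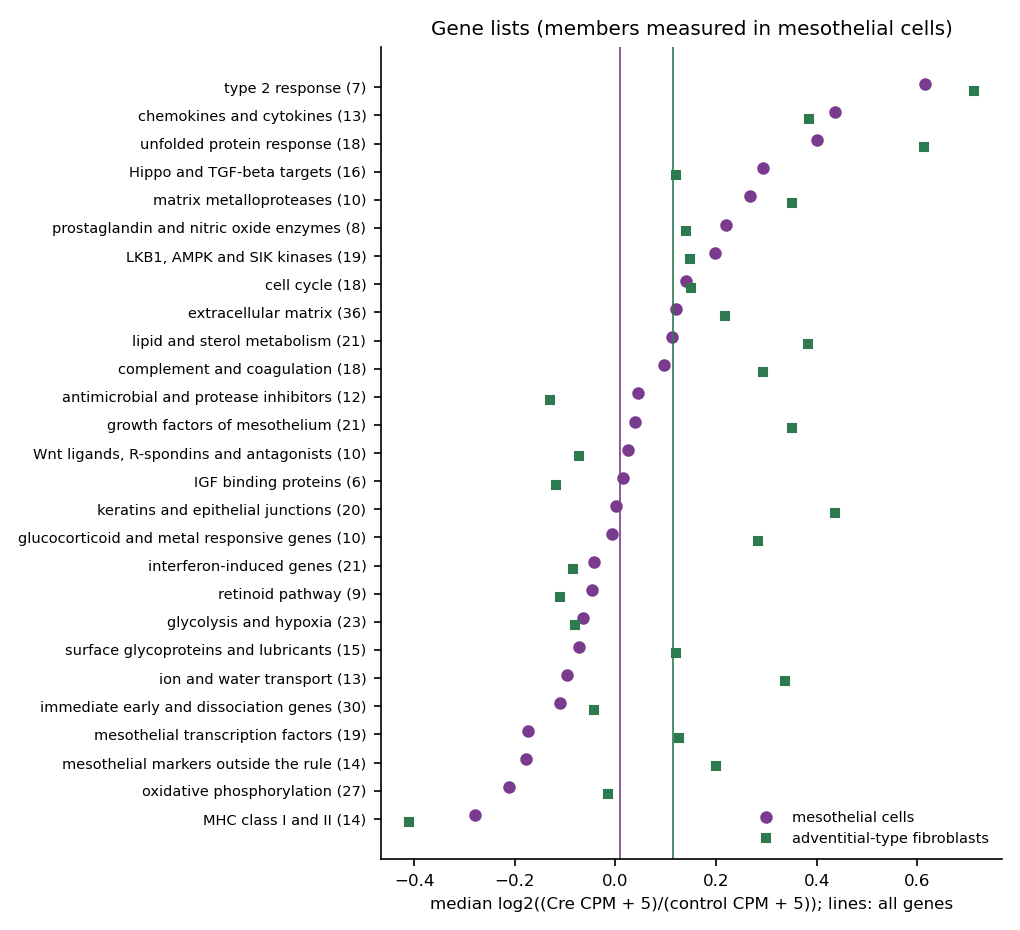
Median log2 ratio of Cre over control (level plus 5 CPM) over the measured genes of each list in mesothelial cells (purple circles) and adventitial-type fibroblasts (green squares), with lines at the medians of all genes, 0.01 and 0.11. The unfolded protein response lies at 0.40 and 0.61, and mesothelial markers outside the rule lie at -0.18 in mesothelial cells.

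Transcripts of other lung cells were present at low levels in most members. Alveolar type 2 markers summed to 4626 CPM in Cre and 4587 CPM in control mesothelial cells, against 13527 and 15810 CPM in B cells, with 3 cells in each library above 5% of their UMIs. Club and ciliated markers summed to 9464 and 1065 CPM, but 1 Cre cell held 16011 of 17261 such UMIs, and without it the Cre level was 698 CPM. Erythroid markers summed to 12992 and 99.5 CPM, with 5 Cre cells above 5%, and stood at 8399 and 117 CPM in the fibroblasts. Immune markers summed to 91.6 and 233 CPM and endothelial markers to 492 and 615 CPM. Smooth muscle and pericyte markers summed to 63.1 and 56.0 CPM, and alveolar fibroblast markers to 680 and 691 CPM. Of all 315 members, 9 Cre and 3 control cells had over 5% of UMIs from the type 2, club and ciliated, and erythroid lists together. Without these 12 cells 20 of the 24 named genes were at least 2-fold apart, against 21 with them, and Cxcl1 had a log2 ratio of 1.99 against 1.97.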

How the data were processed

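Droplet libraries were made with Chromium 3' v3 chemistry from total lung cells of 3 pooled mice per genotype, per the labels' protocols. The authors deposited unscaled UMI counts for each gene and barcode, per the file headers. All values were whole numbers. Cell Ranger 3.1.0, STAR and build mm10 are named per the submitters' processing notes, and for the annotation and any filter nothing is stated in the labels. Both matrices list 31053 genes, of which 30934 matched GENCODE M21 by identifier.

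Cells were kept with at least 200 genes, at least 500 UMIs and at most 20% mitochondrial UMIs. Members were then chosen by the rule on marker UMIs, with doublets kept: Scrublet (scanpy 1.11.5, expected rate 0.06) called 3 Cre and 0 control members. Members, gene lists and tests were chosen with earlier results of these data known. UMIs were summed per library and class, and ratios of CPM carry the exact conditional 95% interval of 2 Poisson counts. PCR duplicates were removed by UMI upstream, and intervals and the floor of 3 counts cover counting error only. A gene was measured with at least 30 UMIs over both libraries, and list medians used log2 of CPM plus 5. B cells were chosen by at least 3 UMIs in sum of Cd79a, Cd79b and Ms4a1 and no UMI of the 5 mesothelial marker genes. They served as a check of free RNA.

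Named genes between the libraries had, where higher, at least 50 CPM and at least the level of the other kept cells, and were the 12 highest and 12 lowest by the interval bound nearest 1. The same ranking gave the 15 genes above and 10 below the fibroblasts, at 100 CPM or more in the higher class. List members and looked-up genes are named beside them. Marker, mitochondrial, ribosomal, haemoglobin, immunoglobulin, T cell receptor, predicted and immediate early genes were left out of the ranking. So were Xist, Tsix, Jpx, Ddx3y, Eif2s3y, Kdm5d and Uty, but no other sex-linked genes as such. The groups within the members came from principal components of 1500 variable genes (scikit-learn 1.9.0) split by k-means on the first, with genes ranked at 100 CPM or more in the higher group. The ratios were tested on simulated data. Alternatives are given in the closing section.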

Additional observations from a re-analysis of the deposited data

Results flagged for a closer look

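Scgb1a1, the secretoglobin of club cells, was singled out because its difference between Cre and control ran in opposite directions in the 2 kinds of cell. Its log2 ratio of Cre over control was 3.18 in mesothelial cells and -3.06 in adventitial-type fibroblasts. The difference between these ratios was not tested. In Cre mesothelial cells 15885 of 17056 Scgb1a1 UMIs came from 1 cell, and without the top cell of each library the ratio in mesothelial cells was 0.647. After thinning to 1000 UMIs Scgb1a1 was detected in 43.7% of Cre and 62.9% of control mesothelial cells, against 65.4% and 73.0% of B cells, which should lack it.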

How the results depend on the processing

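No paired analysis was possible because each genotype has 1 library, and for the same reason no replicate could be left out. The count of genes at least 2-fold apart between Cre and control mesothelial cells was 323 (3.74% of 8646 measured), and it was 95 after thinning to 1000 UMIs (5.70% of 1667), 881 with genes from 10 UMIs (8.03% of 10971) and 85 with genes from 100 UMIs (1.74% of 4897). The count at least 4-fold apart from adventitial-type fibroblasts was 1292, and 207 after thinning. The log2 ratio of shares was -0.19, and it was -0.73 when members with 3 or more adventitial marker UMIs were removed, which left 73 Cre and 103 control cells, and -1.03 per adventitial-type fibroblast. Of the gene lists, 5 had a median at least 0.5 from that of all genes. These were the markers of erythroid, club and ciliated, immune and alveolar type 2 cells, and the type 2 response. The count was 7 after thinning, 3 with equal weight for each cell and 2 with a pseudocount of 20 CPM. It was also 2 when members could hold up to 1 UMI each of Ptprc and Pecam1. After thinning, list medians reversed for metalloproteases (-0.51) and for club and ciliated markers (-2.33). In the larger group alone Lgals1 had a log2 ratio of -0.05, Vcam1 of 2.57 and Igfbp3 of 2.95, the last from 8 UMIs in Cre and 1 in control cells. All 25 identity genes stayed at least 4-fold apart in both libraries under each alternative run on them. Between 18 and 22 of the 24 named genes were at least 2-fold apart. The allowance for Ptprc and Pecam1, the larger group alone, the removal of each gene's top cell and the removal of cells rich in epithelial or erythroid RNA were chosen after seeing the data.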
